A study of Mus musculus with 18 samples.

Results

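DNA replication and mitosis genes were followed in microglia and in macrophages, both sorted from mouse spinal cord after a contusion. The set held 53 genes of the 53465 in the deposited count table, chosen by symbol, of which 27 act in the G1/S transition and DNA replication and 26 in mitosis. All 53 passed the filter on low counts in both cell types. The study compared adult female C57BL/6J mice with a contused spinal cord that received PBS, recombinant IL-13 (rIL-13) or recombinant IL-4 (rIL-4) into the cord at 48 h after injury. Cells were collected 24 h later from 3 mice a group (PBS mice 1, 2 and 3, rIL-13 mice 5, 6 and 7, rIL-4 mice 8, 9 and 10). Microglia (CD45low, CD11b+, F4/80+) and macrophages (CD45high, CD11b+, F4/80+) were sorted from each mouse, which gave 18 libraries in 6 groups. All mice carried the injury and an intraspinal injection, and no uninjured cord was used here. The cell types were told apart by these surface markers, so that cells near the CD45 boundary can fall on either side.

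A cell that divides first copies its genome and then separates the copies. In late G1, E2F transcription factors and cyclin E switch on the genes of S phase, among them the MCM helicase that opens the DNA, the polymerases that copy it and the enzymes that supply nucleotides. Later, in G2 and M phase, the MuvB complex with B-MYB and FOXM1 switches on the cyclins, kinases, kinetochore proteins and motors that carry out mitosis. S phase genes are often read through E2F motifs, and mitosis genes through a cell cycle homology region (CHR) together with CCAAT boxes. Microglia are known to proliferate after spinal cord injury, and IL-4 is known to drive division of some resident macrophages in other tissues.

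The promoters of both classes are shown because the 2 classes are described apart throughout. Of the 53 genes, 42 had a promoter of 300 bases in the RefSeq table of build GRCm38.p6, running from 250 bases before the start site to 50 bases after it. The E2F core (TTCCCGC or TTGGCGC, either strand) was found in 13 of 22 replication genes and 3 of 20 mitosis genes, beside 7.79% of all 27025 genes of the table. The CHR (TTTGAA or TTCGAA, either strand) was found in 15 of 20 mitosis genes and 5 of 22 replication genes, beside 21.7% of all genes. CCAAT was found in 17 of 20 mitosis genes and 13 of 22 replication genes, beside 41.1% of all genes. Within only the 100 bases before the start site, the E2F core was found in 4 replication genes and 1 mitosis gene (3.06% of all genes), the CHR in 1 replication gene and 7 mitosis genes (7.18%) and CCAAT in 11 replication genes and 15 mitosis genes (21.6%). The E2F and CCAAT matches share the letters TTGG where ATTGG, the reverse of CCAAT, is followed by CGC. A match describes the letters and does not show that a factor binds there.

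The 120 bases before the start site are printed for 3 mitosis genes whose stretch held a CHR and for 2 replication genes whose stretch held an E2F core. These 5 were chosen among genes called lower with rIL-4 in macrophages, so they do not tie a motif to a fall. Rrm1, Prim1 and Mki67 also held an E2F core within the 100 bases before the start site and were not called there. Capitals mark the motifs named above. In build GRCm38, the stretches are chr4:118437344-118437463 (minus strand, Cdc20), chr11:99024190-99024309 (minus strand, Top2a), chr10:69352913-69353032 (minus strand, Cdk1), chr1:128359706-128359825 (minus strand, Mcm6) and chr17:56303217-56303336 (plus strand, Uhrf1).
Cdc20: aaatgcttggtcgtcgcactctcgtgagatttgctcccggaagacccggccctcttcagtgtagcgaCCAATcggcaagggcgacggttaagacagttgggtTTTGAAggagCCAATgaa
Top2a: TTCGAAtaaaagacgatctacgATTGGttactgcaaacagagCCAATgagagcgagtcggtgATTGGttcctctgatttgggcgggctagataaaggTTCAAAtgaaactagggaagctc
Cdk1: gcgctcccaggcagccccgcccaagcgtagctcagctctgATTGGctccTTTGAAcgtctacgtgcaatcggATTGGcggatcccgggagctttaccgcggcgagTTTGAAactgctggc
Mcm6: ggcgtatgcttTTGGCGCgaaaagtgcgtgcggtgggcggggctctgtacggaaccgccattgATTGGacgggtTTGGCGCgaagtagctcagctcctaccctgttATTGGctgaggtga
Uhrf1: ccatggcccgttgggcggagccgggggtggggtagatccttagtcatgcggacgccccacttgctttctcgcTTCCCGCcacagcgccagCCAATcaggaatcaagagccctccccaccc
In Cdc20, the CHR TTTGAA ended 12 bases before the start site. In Top2a, a CHR on the other strand (printed as TTCAAA) ended 17 bases before the start site, and in Cdk1 CHRs ended 65 and 9 bases before it. CCAAT boxes on the other strand are printed as ATTGG. Mcm6 held TTGGCGC ending 102 and 39 bases before the start site, and Uhrf1 held TTCCCGC ending 41 bases before it. In GENCODE, the source of gene positions here, the genes start 9 (Cdc20), 26 (Cdk1) and 16 (Uhrf1) bases farther upstream than in the RefSeq table, so that the nearer CHR of Cdk1 lies downstream of its GENCODE start and the farther one upstream of both starts. Mcm6 starts 41 bases farther downstream in GENCODE, so that its motifs lie that much farther from that start, and Top2a starts at the same base in both.

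The 18 libraries held between 35961305 and 45849829 counts each. The lowest count of any of the 53 genes in a macrophage library was 17, for Cdc25c. Levels are given as CPM, the counts of a gene relative to its library's total, scaled by TMM factors within a cell type and not by gene length, so that they compare libraries and not genes. Sums of markers, and values set between the cell types, are scaled over all 18 libraries instead. The folds and tests come from edgeR's quasi-likelihood test with Benjamini-Hochberg adjustment over all genes tested. A gene was called when its adjusted p was under 0.05. The p-values rest on a spread between libraries, estimated over all 9 or 18 libraries of a fit with information shared across genes. SE is an approximate standard error, the size of the log2 fold change divided by the square root of the test's F statistic. The summed level of 7 microglia markers (P2ry12, Tmem119, Sall1, Siglech, Gpr34, Cx3cr1 and Fcrls) was between 993 and 5417 CPM in the 9 microglia libraries and between 71 and 1453 CPM in the 9 macrophage libraries, and 0 of the 7 were at 0 in any group. Markers of fibroblasts and pericytes and of endothelium were also present in the microglia libraries, at 206 to 7286 CPM and 841 to 2753 CPM.

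In macrophages, most mitosis genes and a minority of replication genes were called lower with rIL-4 than with PBS. Of the 26 mitosis genes, 18 were called lower and 0 higher, and of the 27 replication genes, 7 were called lower and 0 higher. Over all 13606 genes tested, 7.20% were called lower and 6.77% higher. Called or not, the log2 fold change was below 0 for 26 of 26 mitosis genes and 23 of 27 replication genes. The median log2 fold change was -1.41 for mitosis genes and -0.38 for replication genes, beside 0.02 for all genes. The groups did not overlap, with rIL-4 lower, for 19 mitosis genes and 12 replication genes, where 17.5% of all genes did so. Fewer dividing cells and less RNA of these genes per cell cannot be told apart in such bulk libraries. The summed microglia markers were also lower in the rIL-4 macrophage libraries, at 71 to 97.1 CPM beside 753 to 1453 CPM with PBS, and all 7 markers did so without overlap of the groups. Of other marker lists, 4 of 9 neutrophil genes (Camp, Ngp, Ltf and Mmp8) were also lower in these libraries without overlap, as were 6 of 9 fibroblast and pericyte genes and 6 of 8 genes of the oligodendrocyte lineage. The neutrophil sum was at 177 to 763 CPM with rIL-4 and 812 to 1445 CPM with PBS, and the fibroblast and pericyte sum at 0.307 to 1.38 CPM and 4.76 to 8.40 CPM. Of 7 endothelial genes, 4 (Cldn5, Kdr, Tek and Esam) were lower without overlap and 2 (Pecam1 and Flt1) higher, and the latter carried the endothelial sum to 205 to 430 CPM beside 45.1 to 53.5 CPM. Of 8 genes of monocyte-derived macrophages, 0 were lower without overlap and 2 (Chil3 and Fn1) higher. Gja1 of 6 astrocyte and ependyma genes and Cd2 of 10 lymphocyte genes were higher, with 0 lower in either list. Of 6 dendritic cell genes, 2 (Xcr1 and Siglech) were lower and 1 (Cd209a) higher. Of 5 neuron genes, 2 (Snap25 and Rbfox3) were lower, at levels near 0. The part of these markers in the counts was not tested.

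The geometric mean over the 26 mitosis genes was 15.0, 7.09 and 14.2 CPM in PBS mice 1, 2 and 3, and 5.24, 4.90 and 4.30 CPM in rIL-4 mice 8, 9 and 10. Every rIL-4 macrophage library was below every PBS library, and PBS mouse 2 stood well below PBS mice 1 and 3. The group means were 12.1 ± 4.33 CPM (SD, n = 3) with PBS and 4.81 ± 0.477 CPM with rIL-4, which is 2.51-fold lower. Over the 27 replication genes, the geometric mean was 19.3, 14.2 and 17.9 CPM with PBS and 12.9, 12.9 and 12.3 CPM with rIL-4. These groups did not overlap either, but their means of 17.1 ± 2.64 CPM and 12.7 ± 0.318 CPM (SD, n = 3) differed by 1.35-fold. The ratio of the mitosis to the replication mean fell from 0.690 ± 0.164 (SD, n = 3) to 0.378 ± 0.0292. The plot of levels by library shows this step for each mouse. No test was made on these means, since the genes were chosen with earlier results known.

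**Figure D1:**
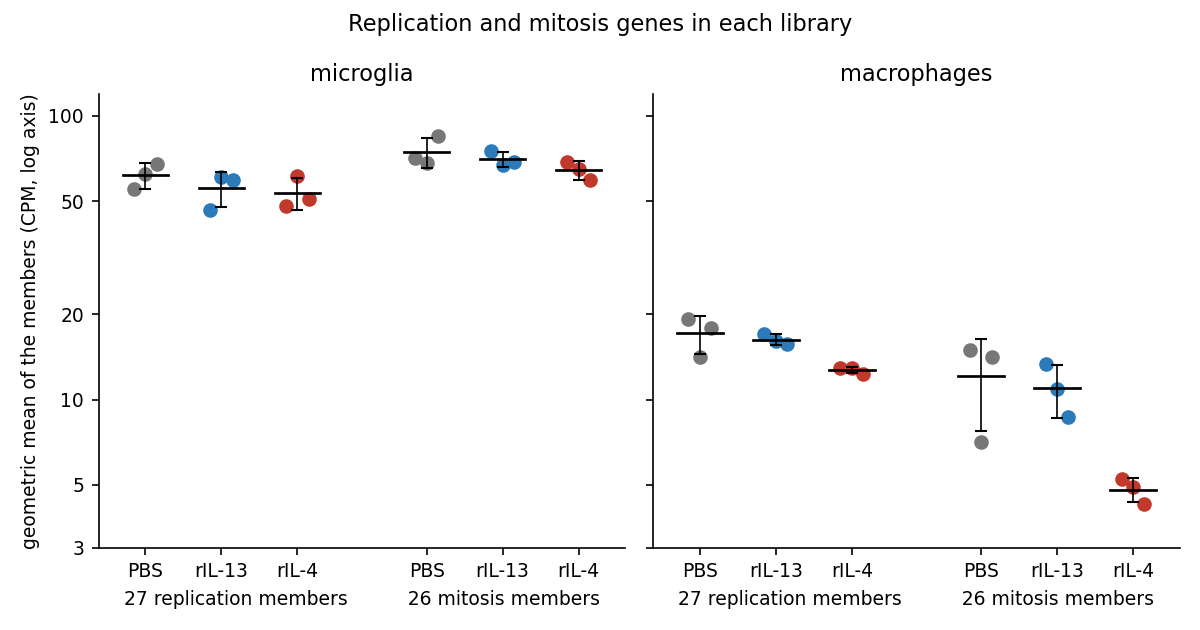
Geometric mean level (CPM, log axis) of the 27 replication and the 26 mitosis genes in each library of microglia (left) and macrophages (right). Points are mice, long lines are means and error bars are SDs of 3 mice. In macrophages, the mitosis genes sit between 4.30 and 5.24 CPM in the rIL-4 libraries and between 7.09 and 15.0 CPM in the PBS libraries.

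Among cyclins, Cdk1 and their regulators, 6 of 8 genes were called lower with rIL-4 in macrophages. Ccnb1 and Ccnb2, the B-type cyclins that activate Cdk1 for entry into mitosis, fell by 1.06 (SE 0.24, adjusted p = 0.0166, edgeR) and by 1.55 (SE 0.31, adjusted p = 0.00870, edgeR) on the log2 scale. Ccnb2 was at 19.96, 10.2 and 20.5 CPM in PBS mice and at 5.74, 5.97 and 5.57 CPM in rIL-4 mice. The rIL-4 libraries were close to each other and all below the lowest PBS library. Ccna2, the cyclin of S and G2 phase, was at 40.0, 20.1 and 39.2 CPM with PBS and at 15.4, 12.3 and 11.03 CPM with rIL-4, a log2 fold change of -1.36 (SE 0.30, adjusted p = 0.0138, edgeR). Cdk1 itself, the kinase that starts mitosis, fell by 1.01 (SE 0.24, adjusted p = 0.0209, edgeR) on the log2 scale.

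The same set of regulators holds proteins that end mitosis. Cdc20, which activates the anaphase-promoting complex (APC/C), was at 20.2, 10.0 and 20.9 CPM with PBS and at 6.13, 6.21 and 6.25 CPM with rIL-4. Its log2 fold change was -1.46 (SE 0.25, adjusted p = 0.00393, edgeR). Ube2c, the ubiquitin-conjugating enzyme that works with the APC/C, was at 17.4, 11.2 and 18.3 CPM with PBS and at 5.85, 4.36 and 4.87 CPM with rIL-4, a log2 fold change of -1.64 (SE 0.27, adjusted p = 0.00304, edgeR). Both genes had no overlap between the groups, and PBS mouse 2 was again the lowest PBS library.

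All 6 genes of the spindle, the midzone and cytokinesis were called lower with rIL-4, and 3 of 5 genes of the spindle checkpoint and kinetochore were. Birc5 (survivin, GRCm38 chromosome 11 from 117849251 to 117855743), a subunit of the chromosomal passenger complex, had the lowest p of the 53. It was at 21.6, 12.6 and 24.8 CPM with PBS and at 5.92, 7.37 and 5.43 CPM with rIL-4, a log2 fold change of -1.66 (SE 0.27, adjusted p = 0.00282, edgeR). Kif20a and Kif23, kinesins of the central spindle, both fell by 1.602 (SE 0.28, adjusted p = 0.00436, edgeR) and 1.71 (SE 0.35, adjusted p = 0.0105, edgeR) on the log2 scale. Prc1, which bundles the microtubules of the midzone, fell by 1.72 (SE 0.38, adjusted p = 0.0143, edgeR) and Nusap1, a spindle microtubule protein, by 1.62 (SE 0.32, adjusted p = 0.00886, edgeR). For each of these 5 genes the PBS and rIL-4 groups did not overlap.

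Of 5 mitotic kinases, 2 were called lower, which were Plk1 (-1.56, SE 0.36, adjusted p = 0.0178, edgeR) and Aurka (-1.01, SE 0.29, adjusted p = 0.0457, edgeR). Bub1 and Ttk, kinases of the spindle checkpoint, had changes of similar size (-1.39 with SE 0.42 and -1.49 with SE 0.46), but their groups overlapped and neither was called. Aurkb, the kinase of the chromosomal passenger complex that Birc5 belongs to, had the value -0.49 (SE 0.29, adjusted p = 0.313, edgeR), at 15.2, 6.88 and 13.9 CPM with PBS and at 9.20, 8.14 and 8.32 CPM with rIL-4. Its rIL-4 libraries all lay above PBS mouse 2.

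Of the genes of mitotic chromatin, 1 of 2 was called. Top2a, the topoisomerase that untangles chromosomes, was at 59.8, 22.8 and 39.8 CPM with PBS and at 15.9, 14.2 and 15.2 CPM with rIL-4, a log2 fold change of -1.43 (SE 0.33, adjusted p = 0.0168, edgeR). Mki67, the proliferation marker Ki-67, was at 34.3, 8.79 and 19.6 CPM with PBS and at 13.6, 8.03 and 10.9 CPM with rIL-4. Its PBS values were widely spread and the groups overlapped, and its log2 fold change of -0.95 (SE 0.44, adjusted p = 0.195, edgeR) did not pass the threshold. Mki67 was thus 1 of the 8 mitosis genes that were not called.

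Replication genes were divided by role. Of the 4 genes of nucleotide supply, 3 were called lower with rIL-4 in macrophages, which were Tk1 (thymidine kinase), Rrm2 (the regulated subunit of ribonucleotide reductase) and Tyms (thymidylate synthase). Tk1 was at 14.0, 9.25 and 17.2 CPM with PBS and at 5.13, 5.46 and 5.14 CPM with rIL-4, a log2 fold change of -1.36 (SE 0.28, adjusted p = 0.0112, edgeR). Rrm2 was at 28.6, 15.8 and 26.2 CPM with PBS and at 10.6, 12.8 and 8.37 CPM with rIL-4, a log2 fold change of -1.16 (SE 0.26, adjusted p = 0.0148, edgeR). Neither gene overlapped between the groups. Only 2 of 11 genes of origin licensing and the helicase were called, Cdt1 and Mcm6, and 2 of 9 polymerases and fork factors, Lig1 and Uhrf1, with log2 fold changes between -0.51 and -0.90. The fourth gene of nucleotide supply, Rrm1, the other subunit of ribonucleotide reductase, had a log2 fold change of -0.28 (SE 0.19, adjusted p = 0.378, edgeR). Pole, the catalytic subunit of polymerase epsilon, had the steepest fitted change of the replication genes, -1.48 (SE 0.59, adjusted p = 0.128, edgeR), at a low and scattered 6.56, 2.99 and 2.58 CPM with PBS and 2.41, 0.607 and 1.32 CPM with rIL-4. The 3 G1/S regulators E2f1, Ccne1 and Ccne2 were not called, with log2 fold changes from -0.88 to 0.27.

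Members of the replication fork and the helicase gave smaller values. Pcna, the sliding clamp, was at 112, 137 and 135 CPM with PBS and at 106, 105 and 100.1 CPM with rIL-4. The groups did not overlap, but the log2 fold change of -0.31 (SE 0.12, adjusted p = 0.117, edgeR) did not pass the threshold. Of the 6 subunits of the MCM helicase, Mcm6 alone was called, and the other 5 had log2 fold changes from -0.60 (Mcm5) to -0.10 (Mcm4). Mcm5 was at 38.6, 25.8 and 39.2 CPM with PBS and at 21.1, 27.8 and 19.5 CPM with rIL-4, a log2 fold change of -0.60 (SE 0.19, adjusted p = 0.0662, edgeR). Its rIL-4 values overlapped PBS mouse 2. E2f1 was at 14.0, 13.8 and 15.1 CPM with PBS and at 15.0, 10.8 and 14.1 CPM with rIL-4, a log2 fold change of -0.10 (SE 0.19, adjusted p = 0.783, edgeR).

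The count of genes called in rIL-4 macrophages depended on single mice. It was 25 with all 3 mice a group, and 9 without PBS mouse 1, 9 without PBS mouse 3 and 9 without rIL-4 mouse 10, all lower, where these fits called 4.54%, 3.95% and 3.73% of all genes lower. DESeq2's Wald test called 29, all lower, where it called 10.3% of all genes lower. The direction did not depend on single mice, since the median of the mitosis genes stayed between -1.73 and -1.22 with each mouse left out in turn.

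**Figure D2:**
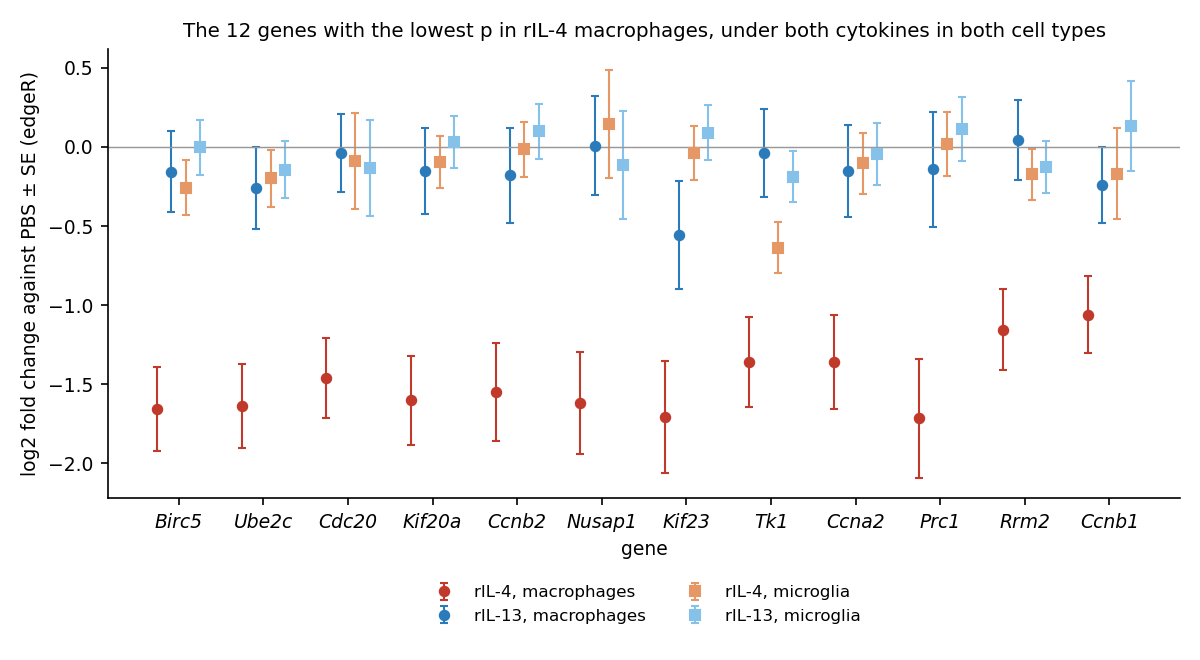
Log2 fold change against PBS (± SE, edgeR) of the 12 genes with the lowest p in rIL-4 macrophages, under rIL-4 and rIL-13 in macrophages (circles) and microglia (squares). The rIL-4 macrophage values lie between -1.72 and -1.06, and the 12 genes were picked for that contrast.

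With rIL-13, 0 of the 53 genes were called in macrophages by edgeR and 1 by DESeq2, while 1 had an unadjusted p under 0.05. Over all genes tested, edgeR called 4.19% and DESeq2 8.56%, and 17.9% had an unadjusted p under 0.05. The median log2 fold change was -0.15 for mitosis genes and -0.09 for replication genes. With each mouse left out in turn, these medians ranged from -0.42 to 0.02 and from -0.23 to 0.02, and both were above 0 without PBS mouse 1. The geometric mean of the mitosis genes was 13.3, 10.9 and 8.67 CPM in rIL-13 mice 5, 6 and 7. These values all lay within the range of the PBS mice. The gene with the lowest p was Cdt1, which helps to load the helicase, at 46.4, 43.6 and 43.6 CPM with PBS and at 31.7, 29.4 and 35.96 CPM with rIL-13. Its groups did not overlap, and its log2 fold change was -0.46 (SE 0.13, adjusted p = 0.0823, edgeR; adjusted p = 0.0146, DESeq2). Mcm6 at -0.27 (SE 0.15, adjusted p = 0.380, edgeR) and Kif23 at -0.56 (SE 0.34, adjusted p = 0.451, edgeR) followed, with overlap of the groups. Of the 53 genes, 2 were lower with rIL-13 without overlap and 0 higher, beside 1652 and 1706 of all 13606 genes tested. For Mki67 the log2 fold change was -0.03 (SE 0.44, adjusted p = 0.985, edgeR), for Top2a -0.47 (SE 0.32, adjusted p = 0.514, edgeR), for Cdk1 -0.01 (SE 0.24, adjusted p = 0.988, edgeR) and for Ccnb1 -0.24 (SE 0.24, adjusted p = 0.673, edgeR). Among the replication genes of the panel, Rrm2 was at 0.04 (SE 0.25, adjusted p = 0.956, edgeR), Pcna at -0.14 (SE 0.12, adjusted p = 0.608, edgeR), Mcm5 at -0.29 (SE 0.19, adjusted p = 0.489, edgeR) and E2f1 at -0.30 (SE 0.19, adjusted p = 0.474, edgeR).

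The direct comparison of the cytokines in macrophages gave 0 called genes by edgeR, although 21 of 26 mitosis genes and 6 of 27 replication genes had an unadjusted p under 0.05. Over all genes tested, 0.250% were called and 11.1% had an unadjusted p under 0.05. The median log2 fold change of rIL-4 against rIL-13 was -1.20 for mitosis genes, with 0 of 26 above 0, and -0.31 for replication genes, with 4 of 27 above 0. The groups did not overlap, with rIL-4 lower, for 23 mitosis genes and 10 replication genes, where 7.08% of all genes did so. Cdc20 was at 16.3, 17.8 and 15.7 CPM with rIL-13 and at 6.13, 6.21 and 6.25 CPM with rIL-4, a log2 fold change of -1.42 (SE 0.25, adjusted p = 0.0528, edgeR). Birc5 was at 21.3, 17.5 and 14.1 CPM with rIL-13, and its log2 fold change was -1.498 (SE 0.27, adjusted p = 0.0528, edgeR). The next genes were Ube2c at -1.38 (SE 0.27) and Kif20a at -1.45 (SE 0.28), both with an adjusted p of 0.0708, and Nusap1 at -1.63 (SE 0.32, adjusted p = 0.0778, edgeR). Of the panel, Rrm2 was at -1.20 (SE 0.26, adjusted p = 0.1002, edgeR), Cdk1 at -0.997 (SE 0.24, adjusted p = 0.147, edgeR), Top2a at -0.97 (SE 0.32, adjusted p = 0.288, edgeR), Mki67 at -0.92 (SE 0.44, adjusted p = 0.483, edgeR) and Ccnb1 at -0.82 (SE 0.24, adjusted p = 0.211, edgeR), each without overlap of the groups. Mcm5 at -0.31 and E2f1 at 0.20 overlapped, and Pcna at -0.17 (SE 0.12, adjusted p = 0.659, edgeR) did not. The count of calls depended on the test, since DESeq2's Wald test called 19 of the 53 genes, all lower with rIL-4, where it called 1.88% of all genes lower. With edgeR, 16 were called without a filter on low counts, where 0.647% of all genes were called lower, and 8 when the 18 libraries shared a model, where 0.399% were, again all lower.

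**Figure D3:**
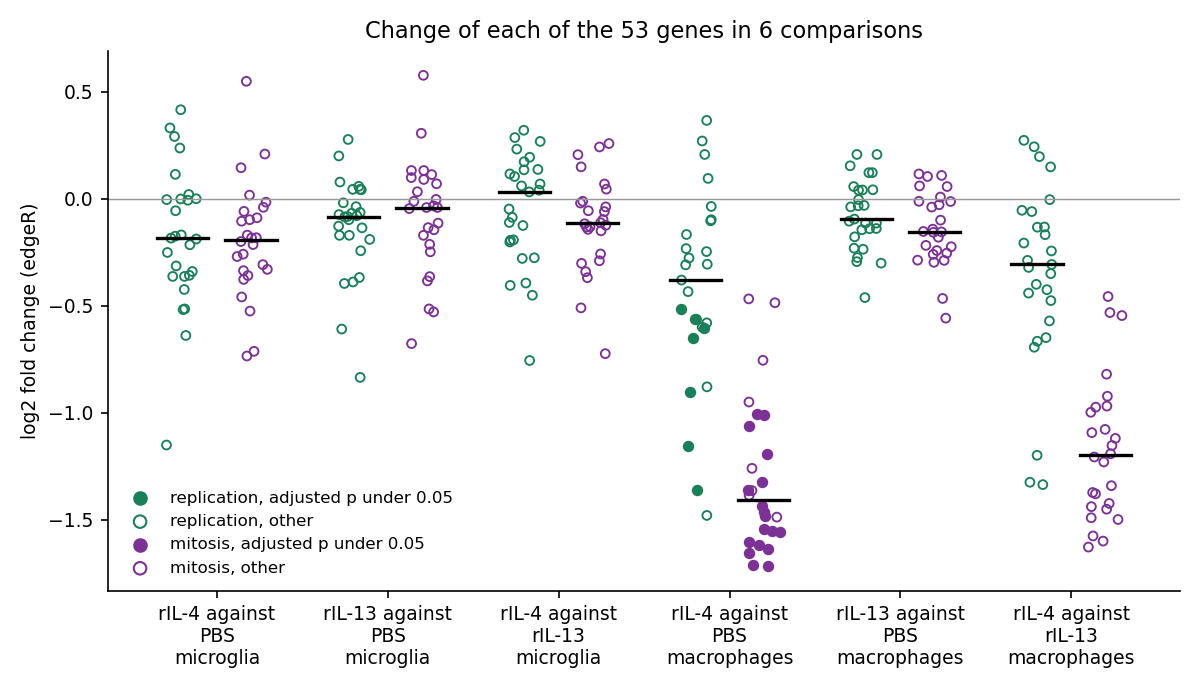
Log2 fold change (edgeR) of each of the 53 genes in the 6 comparisons within a cell type, with replication genes in green and mitosis genes in purple. Filled points passed an adjusted p of 0.05 and black lines are medians. Only rIL-4 against PBS in macrophages holds filled points, and the mitosis medians there and in rIL-4 against rIL-13 are -1.41 and -1.20.

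In microglia, neither cytokine gave a called gene by edgeR. With rIL-4, 0 of 53 genes were called by edgeR and 2 by DESeq2, while 6 had an unadjusted p under 0.05. Over all 15566 genes tested, edgeR called 2.22% and DESeq2 8.09%, and 16.4% had an unadjusted p under 0.05. The geometric mean of the mitosis genes was 71.2, 68.0 and 84.8 CPM in PBS mice and 68.9, 65.2 and 59.4 CPM in rIL-4 mice. These groups overlapped, and so did those of the replication genes, at 55.1, 62.4 and 67.7 CPM with PBS and 48.3, 61.3 and 50.8 CPM with rIL-4. The median log2 fold change was -0.19 for mitosis and -0.18 for replication genes, beside -0.06 for all genes. Other cells' markers differed between the same libraries, with a fibroblast and pericyte sum of 2328 to 3204 CPM with PBS and 206 to 1492 CPM with rIL-4 and an endothelial sum of 841 to 1818 CPM and 1931 to 2521 CPM, and their part in these values was not tested. Aurka, the kinase of the spindle poles, was at 48.8, 52.1 and 45.5 CPM with PBS and at 29.1, 28.2 and 30.6 CPM with rIL-4, a log2 fold change of -0.73 (SE 0.18, adjusted p = 0.0827, edgeR; adjusted p = 0.00638, DESeq2). Tk1 was at 90.3, 108 and 95.8 CPM with PBS and at 51.0, 69.7 and 68.5 CPM with rIL-4, a log2 fold change of -0.64 (SE 0.16, adjusted p = 0.0877, edgeR; adjusted p = 0.0103, DESeq2). Neither gene overlapped between the groups, and these were the 2 genes that DESeq2 called. Of the 53 genes, 7 were lower with rIL-4 without overlap and 1 higher, beside 2317 and 1701 of all 15566 genes tested. Not all values pointed down. Mad2l1, a spindle checkpoint protein, was at 42.0, 56.4 and 65.4 CPM with PBS and at 75.6, 85.4 and 78.7 CPM with rIL-4 in microglia, without overlap, and its log2 fold change was 0.55 (SE 0.20, adjusted p = 0.203, edgeR). In macrophages the same gene had the value -0.47 (SE 0.20, adjusted p = 0.145, edgeR). Cenpe, a kinetochore motor, was in microglia at 45.6, 38.8 and 51.1 CPM with PBS and at 23.02, 33.9 and 25.7 CPM with rIL-4, a log2 fold change of -0.71 (SE 0.23, adjusted p = 0.167, edgeR). Pola1, the catalytic subunit of polymerase alpha, was at 34.4, 25.1 and 54.3 CPM with PBS and at 18.4, 16.8 and 16.1 CPM with rIL-4, a log2 fold change of -1.15 (SE 0.41, adjusted p = 0.208, edgeR). In all, 12 of the 53 values were above 0.

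The genes of the panel were not called in microglia either. Mki67 was at 110, 87.0 and 123 CPM with PBS and at 68.7, 82.7 and 71.0 CPM with rIL-4, without overlap, a log2 fold change of -0.52 (SE 0.22, adjusted p = 0.277, edgeR). For Cdk1 it was -0.33 (SE 0.21, adjusted p = 0.532, edgeR), for Ccnb1 -0.17 (SE 0.29, adjusted p = 0.881, edgeR), for Rrm2 -0.17 (SE 0.16, adjusted p = 0.715, edgeR), for Mcm5 -0.52 (SE 0.25, adjusted p = 0.336, edgeR), for E2f1 -0.42 (SE 0.48, adjusted p = 0.785, edgeR), for Top2a -0.36 (SE 0.16, adjusted p = 0.322, edgeR) and for Pcna -0.17 (SE 0.16, adjusted p = 0.720, edgeR).

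With rIL-13, 0 of 53 genes were called in microglia by edgeR and 0 by DESeq2, and 3 had an unadjusted p under 0.05. Over all genes, edgeR called 0.366% and DESeq2 2.19%, and 7.76% had an unadjusted p under 0.05. The geometric mean of the mitosis genes was 75.1, 67.3 and 68.9 CPM in rIL-13 mice, and the median log2 fold change was -0.04 for mitosis and -0.08 for replication genes, with ranges of -0.15 to 0.02 and -0.19 to -0.03 when each mouse was left out. The replication genes of rIL-13 mouse 5 were the lowest of the 9 microglia libraries, at 46.5 CPM, while its mitosis genes were not low. Cenpe had the lowest p of the 53, at 33.6, 28.5 and 22.7 CPM with rIL-13, and a log2 fold change of -0.68 (SE 0.23, adjusted p = 0.500, edgeR). It was followed by Plk1, which sat at 94.2, 98.1 and 111 CPM with PBS and at 71.7, 54.6 and 86.4 CPM with rIL-13 (log2 fold change -0.51, SE 0.20, adjusted p = 0.581, edgeR). Mcm3, a helicase subunit, was at 203, 220 and 255 CPM with PBS and at 181, 159 and 177 CPM with rIL-13, and its log2 fold change was -0.39 (SE 0.17, adjusted p = 0.628, edgeR). The next genes were Cdt1 at -0.37 (SE 0.18, adjusted p = 0.6996, edgeR), Mki67 at -0.38 (SE 0.22, adjusted p = 0.831, edgeR) and the checkpoint protein Bub1b at -0.36 (SE 0.23, adjusted p = 0.881, edgeR). Of these 6 genes, which were picked for the lowest p, only Mki67 overlapped between the groups. Of the 53 genes, 7 were lower with rIL-13 without overlap and 0 higher, beside 1391 and 1088 of all 15566 genes tested. All other genes of the panel overlapped, at -0.25 (SE 0.16) for Top2a, -0.24 (SE 0.24) for Mcm5, -0.13 (SE 0.16) for Rrm2, -0.08 (SE 0.16) for Pcna, -0.04 (SE 0.21) for Cdk1, -0.02 (SE 0.48) for E2f1 and 0.13 (SE 0.29) for Ccnb1.

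When the cytokines were compared in microglia, 0 of 53 genes were called by edgeR and 2 had an unadjusted p under 0.05, where 0.0385% of all genes were called and 11.4% had an unadjusted p under 0.05. The 1 gene that passed in DESeq2, which called 3.78% of all genes, was Aurka, at 59.1, 41.7 and 44.4 CPM with rIL-13 and a log2 fold change of rIL-4 against rIL-13 of -0.72 (SE 0.18, adjusted p = 0.235, edgeR; adjusted p = 0.0150, DESeq2). Tk1 was at 82.8, 86.1 and 89.6 CPM with rIL-13, above each rIL-4 library, and had the value -0.45 (SE 0.16, adjusted p = 0.382, edgeR). Aurkb followed at -0.34 (SE 0.18, adjusted p = 0.530, edgeR) and Cenpf, a kinetochore protein, at -0.51 (SE 0.30, adjusted p = 0.599, edgeR), both without overlap. Of the 53 genes, 4 were lower with rIL-4 without overlap and 0 higher, beside 1038 and 884 of all 15566 genes tested. The groups overlapped for Pola1 at -0.76 (SE 0.41, adjusted p = 0.544, edgeR) and Birc5 at -0.26 (SE 0.17, adjusted p = 0.675, edgeR). They also overlapped for all 8 genes of the panel, whose log2 fold changes were -0.40 (SE 0.48) for E2f1, -0.30 (SE 0.29) for Ccnb1, -0.29 (SE 0.21) for Cdk1, -0.27 (SE 0.24) for Mcm5, -0.14 (SE 0.22) for Mki67, -0.11 (SE 0.16) for Top2a, -0.09 (SE 0.16) for Pcna and -0.05 (SE 0.16) for Rrm2.

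**Figure D4:**
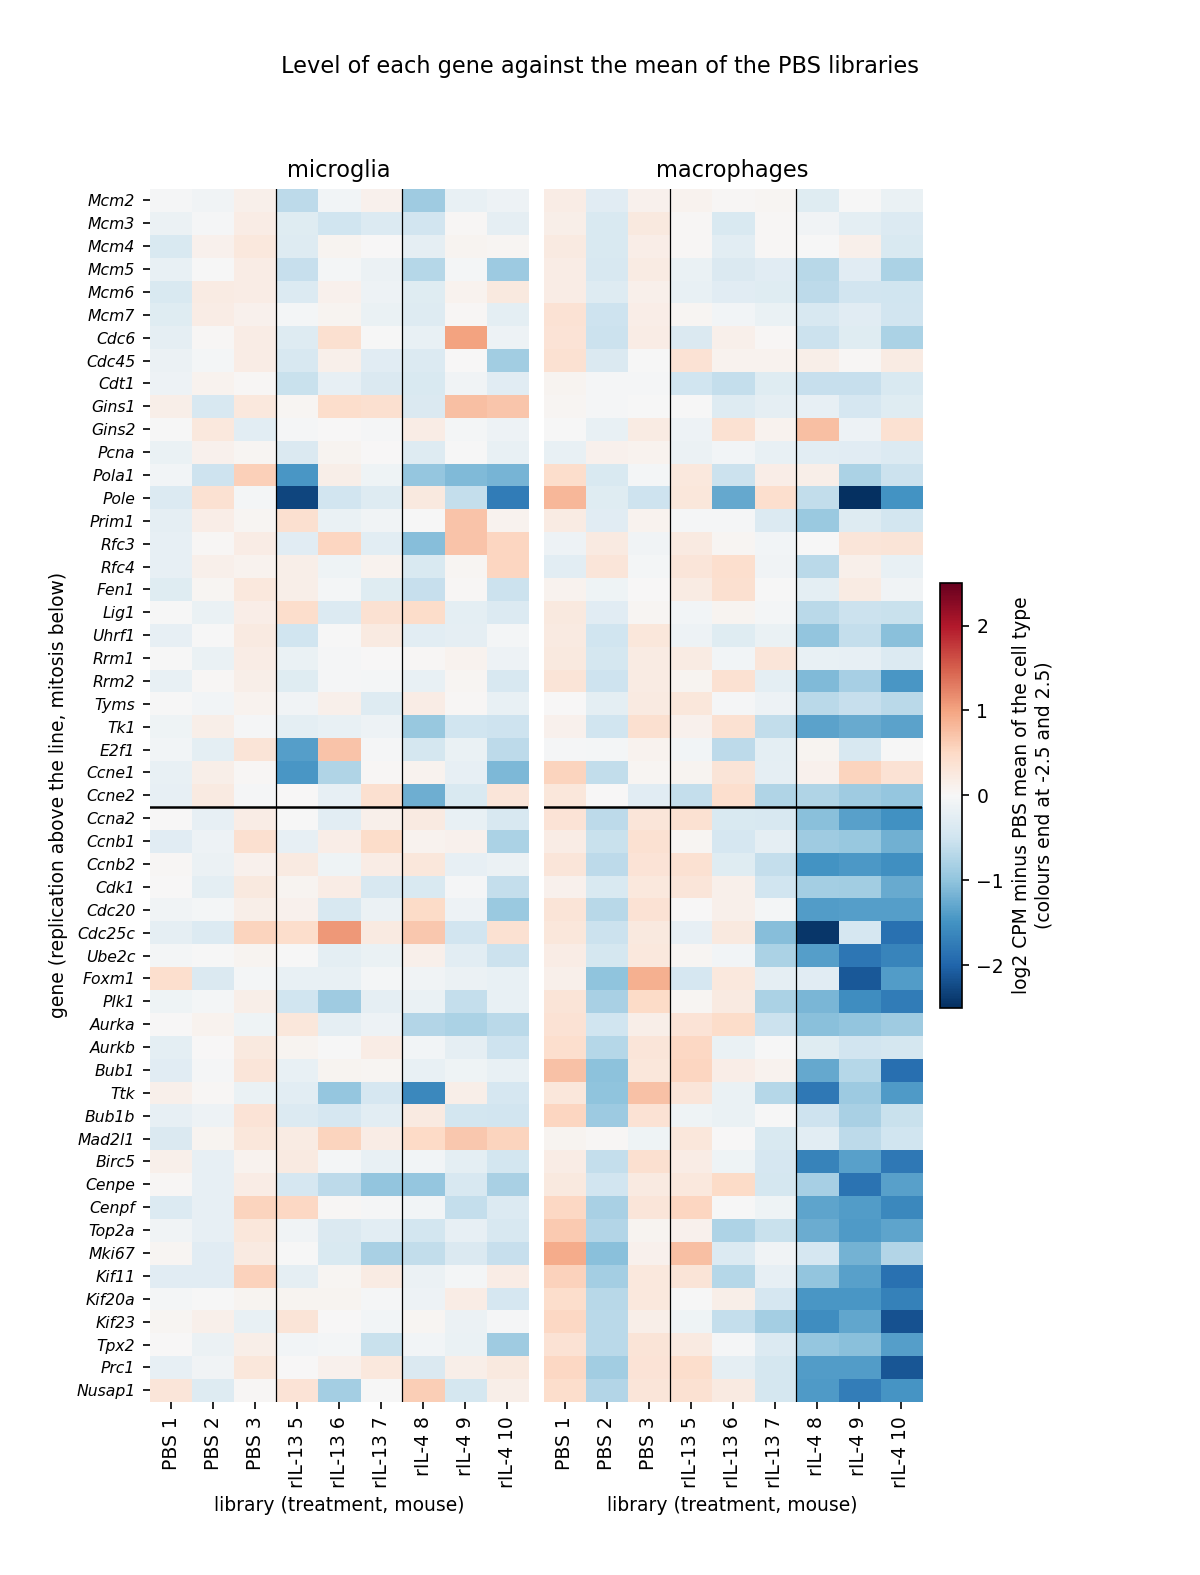
Level of each of the 53 genes in each library as log2 CPM minus the mean of the 3 PBS libraries of the same cell type, with replication genes above the black line and mitosis genes below it. Blue is lower and red higher than PBS, and colours end at -2.5 and 2.5. The lower right block, mitosis genes in rIL-4 macrophages, is blue throughout, and PBS mouse 2 is bluer than PBS mice 1 and 3.

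Whether the response to rIL-4 differed between the cell types was tested in a fit of all 18 libraries. The log2 response was higher in microglia than in macrophages for 26 of 26 mitosis genes, with a median difference of 1.16, and for 20 of 27 replication genes, with a median of 0.24. Of the 53 genes, 2 were called, both mitosis genes with a less negative response in microglia, where 0.490% of all 16535 genes were called higher. On CPM scaled over the 18 libraries, Kif20a was at 85.6, 87.6 and 91.7 CPM in PBS microglia and at 79.85, 97.55 and 65.95 CPM in rIL-4 microglia, but at 22.2, 10.25 and 19.7 CPM in PBS macrophages and at 5.90, 6.08 and 5.20 CPM in rIL-4 macrophages. The difference of its responses was 1.48 (SE 0.33, adjusted p = 0.0415, edgeR). For Ube2c it was 1.41 (SE 0.32, adjusted p = 0.0479, edgeR). Birc5 followed at 1.37 (SE 0.32, adjusted p = 0.0569, edgeR), Kif23 at 1.65 (SE 0.40, adjusted p = 0.0619, edgeR), Ccnb2 at 1.51 (SE 0.37, adjusted p = 0.0623, edgeR) and Prc1 at 1.71 (SE 0.45, adjusted p = 0.0875, edgeR). With the mouse as a block, which uses that both cell types came from the same mouse, the count was again 2, where 0.738% of all genes were called higher, but Birc5 was called (1.33, adjusted p = 0.0246, edgeR) and Kif20a was not (1.39, adjusted p = 0.0558, edgeR). DESeq2 called 10 of the 53 higher, where it called 2.46% of all genes higher, and edgeR called 0 in 5 of the 6 fits that leave out a PBS or rIL-4 mouse and 1 without PBS mouse 2, where 0.209% of all genes were called higher. For rIL-13, 0 of the 53 responses differed between the cell types by edgeR or DESeq2 and 0 had an unadjusted p under 0.05, where edgeR called 0.0242% of all genes and DESeq2 0.957%, and 5.83% had an unadjusted p under 0.05. The genes with the lowest p were Cenpe at -0.80 (SE 0.42, adjusted p = 0.936, edgeR), Kif23 at 0.64 (SE 0.39), Cdc25c, the phosphatase that activates Cdk1, at 0.86 (SE 0.71), Mad2l1 at 0.32 (SE 0.28), Ccne1, a cyclin of the G1/S transition, at -0.61 (SE 0.52) and Gins1, a helicase subunit, at 0.46 (SE 0.40). The last 5 had an adjusted p of 0.9999, and both directions were seen among the 6.

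In PBS mice, most of the genes stood higher in microglia than in macrophages. Of the 26 mitosis genes, 26 were called higher in microglia, and of the 27 replication genes, 25, where 15.7% of all genes were called higher. The median log2 difference was 2.34 for mitosis genes and 1.62 for replication genes, beside 0.11 for all genes. On CPM from the fit of all 18 libraries, the mitosis genes had a geometric mean of 67.6 ± 7.59 CPM (SD, n = 3) in microglia and 13.4 ± 4.75 CPM in macrophages, 5.04-fold higher, and the replication genes 55.9 ± 5.33 CPM and 19.0 ± 2.83 CPM, 2.94-fold higher. Tyms had the lowest p, with a log2 difference of 2.24 (SE 0.18, adjusted p = 3.04e-07, edgeR), and Cdk1 was higher by 2.63 (SE 0.25, adjusted p = 1.33e-06, edgeR). Rrm2 was higher by 2.58 (SE 0.23, adjusted p = 7.85e-07, edgeR) and Mcm7, a helicase subunit, by 1.97 (SE 0.20, adjusted p = 2.17e-06, edgeR). Of the other replication genes with the lowest p, Rrm1 was higher by 2.05 (SE 0.17), Tk1 by 2.57 (SE 0.25) and Uhrf1, which guides maintenance methylation of new DNA, by 2.13 (SE 0.22), with adjusted p from 3.28e-07 to 3.48e-06. Of the mitosis genes, Ube2c was higher by 2.46 (SE 0.24), Kif20a by 2.35 (SE 0.24), Birc5 by 2.28 (SE 0.24), Ccna2 by 2.55 (SE 0.27) and Ccnb2 by 2.41 (SE 0.27), with adjusted p from 1.64e-06 to 6.22e-06 (edgeR). The groups did not overlap for any of these 12 genes, which were picked for the lowest p in this comparison. The 2 genes that were not called were named after their values were seen. They were E2f1, at a log2 difference of -0.43 (SE 0.37, adjusted p = 0.444, edgeR), and Cdt1, at -0.30 (SE 0.14, adjusted p = 0.150, edgeR). Both were lower in microglia without overlap of the groups. E2f1 was at 11.2, 9.80 and 14.4 CPM in PBS microglia and at 15.5, 15.4 and 16.7 CPM in PBS macrophages. Cdt1 was at 37.3, 43 and 40.8 CPM and at 51.4, 48.9 and 48.4 CPM. With rIL-4, the mitosis genes were 10.7-fold higher in microglia and the replication genes 3.37-fold, and with rIL-13 5.23-fold and 2.79-fold. Markers of fibroblasts, pericytes and endothelium were found in the microglia libraries, as given above, although a gate on CD11b and F4/80 is meant to leave such cells out and the methods state a high purity after sorting. The part of such RNA in this difference was not tested.

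Microglia markers were lower with both cytokines in macrophages, and mitosis genes with rIL-4. These sums and percentages are on the scaling of the fit of all 18 libraries. The summed level of the 7 markers in PBS mice 1, 2 and 3 was 1403, 753 and 1453 CPM in macrophages, and the summed level of the 26 mitosis genes in the same libraries was 537, 257 and 491 CPM. In rIL-13 mice 5, 6 and 7, the markers were at 508, 312 and 323 CPM and the mitosis genes at 476, 368 and 309 CPM. In rIL-4 mice 8, 9 and 10, the markers were at 97.1, 71 and 92.7 CPM and the mitosis genes at 196, 178 and 167 CPM. The macrophage library of PBS mouse 2 was the lowest PBS library in both sums, and the rIL-4 libraries were the lowest of the 9 in both. The rIL-13 libraries were all below the PBS libraries in the marker sum but within their range in the mitosis sum, and each had more mitosis signal than PBS mouse 2 at a lower marker sum.

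Set against microglia of the same treatment, the macrophage level of the single markers was between 13.7% and 32.6% with PBS (median 22.7% of 7 markers), between 10.3% and 26.3% with rIL-13 (median 16.1%) and between 2.26% and 15.1% with rIL-4 (median 4.84%). Sall1, a transcription factor of microglia, was at 14.2, 3.81 and 12.1 CPM in PBS macrophages and at 0.690, 0.574 and 0.435 CPM in rIL-4 macrophages. The summed mitosis genes of macrophages were at 19.8% of their level in microglia with PBS, 19.0% with rIL-13 and 9.67% with rIL-4, and the replication genes at 36.1%, 37.0% and 32.5%. The marker sum was also lower in the microglia themselves, at 2735 to 5417 CPM with PBS and 993 to 1832 CPM with rIL-4, while their mitosis genes overlapped between these groups. The part that microglia in the macrophage gate have in the fall of the mitosis genes was not tested.

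**Figure D5:**
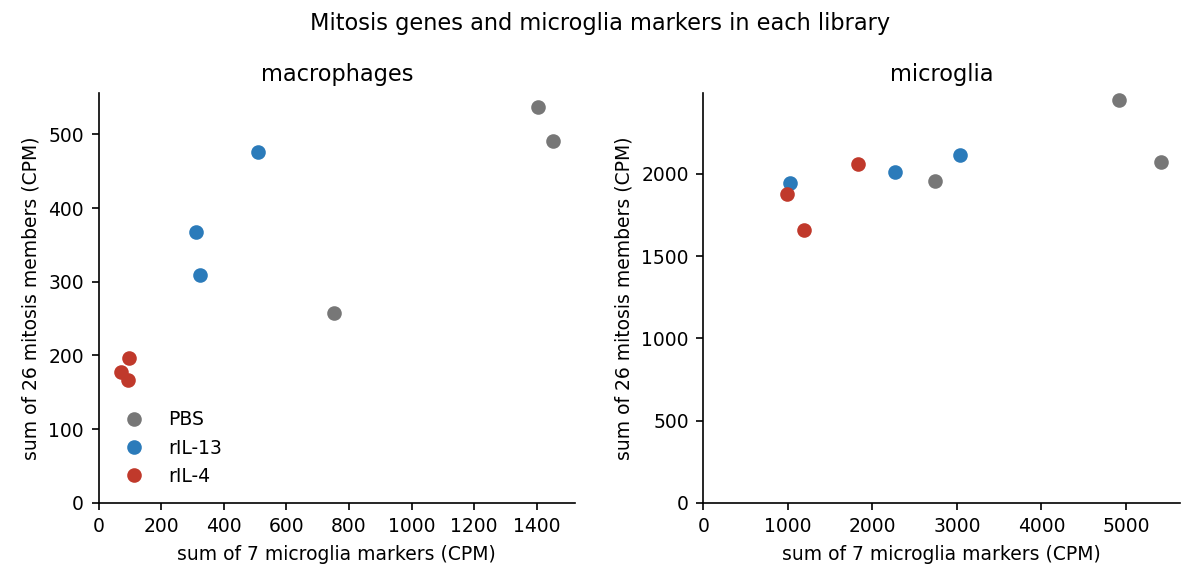
Sum of the 26 mitosis genes against the sum of 7 microglia markers (both in CPM scaled over all 18 libraries) in the macrophage libraries (left) and the microglia libraries (right), coloured by treatment. In macrophages, the rIL-4 libraries lie at the lower left, with 167 to 196 CPM of mitosis genes at 71 to 97.1 CPM of markers, and PBS mouse 2 lies below the other PBS mice on both axes.

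Other genes of the cell cycle were read from lists outside the 53. In rIL-4 macrophages, 22 of 50 other mitosis genes were called lower and 1 higher against PBS, with a median log2 fold change of -1.18, beside 7.20% of all genes called lower and 6.77% higher. Pbk, a mitotic kinase, fell by 1.93 (SE 0.30, adjusted p = 0.00251, edgeR), Kif4, a chromosome-bound kinesin, by 2.03 (SE 0.34, adjusted p = 0.00358, edgeR) and Kif2c, a kinesin that depolymerizes microtubules, by 2.01 (SE 0.34, adjusted p = 0.00360, edgeR) on the log2 scale. Of 33 other replication genes, 3 were called lower and 1 higher, beside those 7.20% and 6.77% of all genes, with a median of -0.13. The maintenance DNA methyltransferase Dnmt1 fell by 1.15 (SE 0.25, adjusted p = 0.0143, edgeR), and Pole2, a subunit of polymerase epsilon, rose by 0.95 (SE 0.21, adjusted p = 0.0159, edgeR). Both lists repeated the order seen in the 53 genes, with mitosis genes lower than replication genes, and they were written with results of these data known.

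The lists around the G1 checkpoint and repair held 2 calls each, against 7.20% of all genes called lower. Of 11 G1 cyclins and CDKs tested, 2 were called lower in rIL-4 macrophages, which were Ccnd1 at -1.73 (SE 0.25, adjusted p = 0.00165, edgeR) and Ccnd2 at -2.49 (SE 0.53, adjusted p = 0.0126, edgeR). Ccnd1, the D-type cyclin that opens the way into S phase, was also lower with rIL-13 in macrophages, by a log2 fold change of -1.20 (SE 0.25, adjusted p = 0.0246, edgeR), and with rIL-4 in microglia, by -0.94 (SE 0.20, adjusted p = 0.0485, edgeR). These comparisons share their PBS libraries within a cell type. Of 19 CDK inhibitors and brakes, 2 were called lower in rIL-4 macrophages, Lin9 at -1.10 (SE 0.24, adjusted p = 0.0144, edgeR), a subunit of the MuvB complex, and Btg1, an antiproliferative gene, at -0.90 (SE 0.23, adjusted p = 0.0252, edgeR). Of 17 genes of the S phase checkpoint and repair, 2 were called lower, the Fanconi anaemia gene Fancd2 at -1.47 (SE 0.34, adjusted p = 0.0172, edgeR) and Rad51ap1 at -1.33 (SE 0.36, adjusted p = 0.0333, edgeR). In microglia with rIL-4, 1 of the 134 genes tested over these 5 lists was called, Ccnd1, where 2.22% of all genes were.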

How the data were processed

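RNA of sorted microglia and macrophages was sequenced with a SMARTseq2-type protocol, which does not mark strand. Per the labels and the paper's methods, the authors aligned reads with STAR 2.5.3a to GRCm38 and deposited expected counts per gene from RSEM 1.3.0. RSEM divides reads between similar genes by estimation, so values of genes with close copies are less certain. The expected counts were rounded to whole numbers. Genes passed edgeR's filter by group, and libraries were scaled by TMM. Main tests were edgeR 4.0.16 quasi-likelihood tests (R 4.3.3) with Benjamini-Hochberg adjustment over all genes tested. The 9 libraries of a cell type were fitted together for the treatments, and all 18 for comparisons of cell types. DESeq2 1.42.0 was an alternative, since the authors used DESeq2 for each cell type. With 3 mice against 3, an exact permutation test cannot go below 0.1, so no single value was tested that way. The levels of replication and mitosis genes are geometric means of CPM over the genes. Text names the up to 12 called genes with the lowest p per comparison (6 where fewer are called) and a panel of 8 (Mki67, Top2a, Cdk1, Ccnb1, Pcna, Mcm5, Rrm2 and E2f1). The genes, the lists and the panel were chosen with earlier results of these data known. Both cell types of a mouse are paired by the labels, and same-mouse deviations correlated at 0.02 to 0.09 across genes. Promoters came from RefSeq (GRCm38.p6) and gene positions from GENCODE release M21 (GRCm38). The tests were checked on simulated counts. Alternatives were DESeq2, other size factors, filters, the libraries fitted, the mouse as a block and each mouse left out. Some genes of the marker and pathway lists are not reported here and were left out of the sums and counts.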

Additional observations from a re-analysis of the deposited data

Results flagged for a closer look

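The response to rIL-4 differed between microglia and macrophages for Kif20a, by 1.48 on the log2 scale (microglia minus macrophages, SE 0.33, adjusted p = 0.0415, edgeR interaction term), and for Ube2c, by 1.41 (SE 0.32, adjusted p = 0.0479, edgeR). Both genes of mitosis drew attention because the test of the difference itself passed the threshold. Over the alternatives, the difference stayed positive, at 1.24 or more for Kif20a and at 1.31 or more for Ube2c, and the adjusted p reached 0.242 and 0.256 with a mouse left out. Each mouse gave a library of either cell type, and with the mouse as a block Kif20a lost its call (1.39, adjusted p = 0.0558, edgeR) and Ube2c kept it (1.37, adjusted p = 0.0499, edgeR). Microglia markers in the macrophage libraries were lower in the same group, and their part in the difference was not tested.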

How the results depend on the processing

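Of the counts of called genes and the medians under the alternatives, 284 stayed within 1.5 times the main count or within the spread between mice, and 22 moved beyond that. With DESeq2's Wald test, 2 genes were called for rIL-4 against PBS in microglia, 1 for rIL-4 against rIL-13 in microglia, 1 for rIL-13 against PBS in macrophages, 19 for rIL-4 against rIL-13 in macrophages and 10 for the cell type difference in the rIL-4 response. Without a filter, the last 2 gave 16 lower and 5 higher, where 151 of 23333 and 110 of 25957 genes tested were. With at least 10 counts in every library, the cell type difference gave 5 higher, where 80 of 10191 genes were. With only the 6 libraries compared, rIL-4 against rIL-13 in macrophages gave 1 lower, where 7 of 12958 genes were. In the fit of 18 libraries, that comparison gave 8 lower, where 66 of 16535 genes were. When each mouse was left out, rIL-4 against PBS in macrophages gave 9 to 29 called genes, each with fewer samples. It gave 9 without PBS mouse 1, PBS mouse 3 or rIL-4 mouse 10, with the shares given above. Without PBS mouse 2 it gave 29, all lower, where 706 of 14126 genes were called lower. For rIL-4 against rIL-13 in macrophages the count was 0 to 1. The 1 came without rIL-13 mouse 7, where 23 of 14145 genes were called lower. The cell type difference gave 0 to 1, with 1 without PBS mouse 2, where 36 of 17207 genes were called higher. The replication median ranged from -0.53 to -0.30 for rIL-4 against PBS in macrophages and from 1.51 to 1.82 for microglia against macrophages in PBS. The cause was not tested.

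With the mouse as a replicate block, 2 genes were called for the cell type difference in the rIL-4 response, and Kif20a (1.39) lost and Birc5 (1.33) gained its call. For microglia against macrophages in PBS, the block called 51 genes higher, where 2381 of all 16535 genes tested were. The block ended no other call among the genes named there.

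Direction changed with a mouse left out for small changes that were not called. With rIL-13 against PBS in microglia, the log2 fold change ranged from -0.04 to 0.36 for Ccnb1, from -0.58 to 0.37 for E2f1, from -0.16 to 0.11 for Cdk1 and from -0.16 to 0.04 for Pcna. With rIL-4 against PBS it ranged from -0.31 to 0.07 for Ccnb1 in microglia and from -0.19 to 0.01 for E2f1 in macrophages. With rIL-4 against rIL-13 in microglia it ranged from -0.32 to 0.07 for Mki67, from -0.16 to 0.05 for Rrm2 and from -0.79 to 0.15 for E2f1. With rIL-13 against PBS in macrophages it ranged from -0.42 to 0.52 for Mki67, from -0.18 to 0.18 for Cdk1 and from -0.17 to 0.19 for Rrm2.

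With 3 mice a group, changes several times their SE could still miss the threshold over all genes, as for Aurka with rIL-4 in microglia (-0.73, SE 0.18) and Cdc20 between rIL-4 and rIL-13 in macrophages (-1.42, SE 0.25), and the lowest count of a gene of the set in a library was 17 (Cdc25c in macrophages).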
